A study of Mus musculus with 6 samples.

Results

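The genes of the proteasome were followed in wild-type C57BL bone-marrow-derived macrophages, cells grown from marrow precursors in culture. Macrophages kept for 24 hr with thymocytes made apoptotic by dexamethasone, at a ratio of 1:40, were set against untreated macrophages, with 3 libraries in each group. Apoptotic cells had been removed when RNA was taken, and the series' design text calls the libraries biological replicates. Poly(A) RNA was sequenced from strand-specific libraries. Values are RPKM, reads normalised to gene length and library size, as deposited for 38124 genes on mouse GRCm38 (mm10).

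Members were chosen by symbol, as every gene whose name starts with Psm, a letter from a to g and a number. This gave 52 of the 38124 genes. The group was taken up with earlier results of these same libraries known, and the RPKM of treated against untreated macrophages are the values it was selected on. Changes of the members are therefore given as a description of that contrast, and the counts of members past a threshold support nothing further.

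The proteasome is the main protease of the cytosol and nucleus and degrades proteins tagged with ubiquitin. Its 20S core is a barrel of alpha rings, which gate the entrance, and beta rings, of which the Psmb5, Psmb6 and Psmb7 subunits carry the cutting sites. The 19S cap recognises the ubiquitin chain, removes it and unfolds the substrate with a ring of ATPases. In cells exposed to interferon, and in many immune cells, the cutting subunits are replaced by the immunosubunits Psmb8, Psmb9 and Psmb10 during assembly, and the PA28 activator of Psme1 and Psme2 can take the place of a cap. This form is known for making peptides for MHC class I molecules.

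Of the 52 members, 47 reached 1 RPKM in at least 3 libraries and were tested. Macrophages with apoptotic thymocytes had higher levels of 24 of these and lower levels of 8, while 15 did not pass (limma on log2(RPKM + 1), adjusted p under 0.05 over all 10173 tested genes). Over all tested genes, 18.8% were higher, 46% were lower and 64.8% were one or the other. The groups did not overlap in 33 of the 47 members and in 69.6% of all tested genes. The median log2 change, treated minus untreated, was 0.13 among members and -0.13 among all tested genes, and 39 of the 47 members lay above the median gene. A scaling by median of ratios, which moves all changes upward, put the median gene at 0.02 (log2), with 31.9% of all genes higher and 27.9% lower. Under it all 24 higher members remained higher, 10 of the 15 that had not passed became higher (Psma4, Psmb6, Psmb7, Psmc4, Psmd6, Psmd9, Psmd12, Psmg3, Psmg4 and Psme3), and of the 8 lower members Psmb8, Psmb9, Psme2, Psmd10 and Psme2b-ps remained lower. In RNA of whole cultures, fewer cells of a type and less RNA per cell cannot be told apart.

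Read by particle, the higher members were mostly subunits of the standard 26S proteasome. Of its 31 genes, 22 were higher, only Psmd8 was lower and 8 did not pass, with a median log2 change of 0.18. The standard 20S core had 10 of 14 genes higher and 0 lower, and the 19S cap had 12 of 17 higher and 1 lower. The immunosubunits had 0 higher and 2 lower of 3, and the activators and inhibitor had 1 higher and 3 lower of 5. Over all tested genes 18.8% were higher and 46% lower. Under the scaling by median of ratios 28 of the 31 standard genes were higher and 0 lower. The immunosubunits then had 0 higher and 2 lower, and the activators and inhibitor 2 higher and 1 lower. Over all genes the shares were then 31.9% higher and 27.9% lower. Most of the changes of standard subunits were small. Only Psmc1, Psmb5 and Psma5 among those 31 genes had mean RPKM more than 1.5 times as high in treated as in untreated macrophages. Summed over all 52 members, RPKM was 2061 ± 73.7 in treated and 1783 ± 51.7 in untreated libraries (SD, n = 3 each), or 0.537% ± 0.00523 and 0.503% ± 0.00731 of all RPKM.

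**Figure D1:**
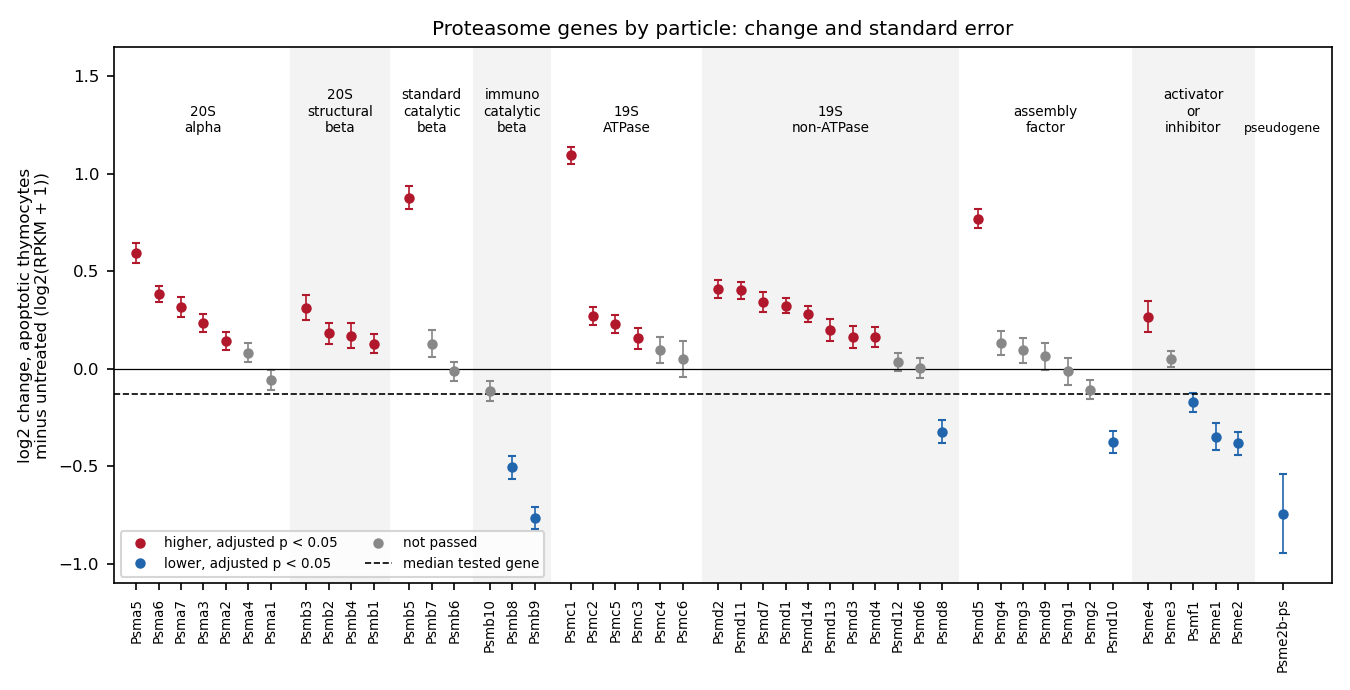
Log2 change (treated with apoptotic thymocytes minus untreated, on the log2(RPKM + 1) scale) of the 47 tested members, grouped by particle, with bars of 1 standard error from the limma fit over 6 libraries. Red and blue points passed as higher and lower, grey points did not pass, and the dashed line is the median tested gene at -0.13. Standard subunits lie mostly above 0, with Psmc1 at 1.09 and Psmb5 at 0.88, and Psmb8, Psmb9, Psme1 and Psme2 lie below it.

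Psmb5 (ENSMUSG00000022193, chromosome 14, 54614120 to 54617995, minus strand) encodes the standard subunit with the chymotrypsin-like site, which cuts after hydrophobic residues. Its level was 159, 164 and 184 RPKM in treated macrophages, against 90.5, 92.9 and 90.6 RPKM in untreated macrophages. The lowest treated library thus stood well above the highest untreated library. The means were 169 ± 13.4 and 91.3 ± 1.39 RPKM (SD, n = 3 each), a ratio of 1.85 and a log2 change of 0.88 (SE 0.0579). Psmb5 was the most abundant 20S transcript in all 3 treated libraries. In 1 of the untreated libraries Psmb1 stood above it. Psmb5 shares 109 exon bases on the same strand with the microRNA gene Mir686.

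The bases upstream of Psmb5 are shown because its rise was the largest among the members whose window held the core of an antioxidant response element, the site bound by NRF2 and related factors. The sequence is from RefSeq on GRCm38.p6, chr14:54618023-54618245, minus strand, and stops where the first exon of GENCODE M21 starts. Capitals mark the match to TGACNNNGC.
Psmb5: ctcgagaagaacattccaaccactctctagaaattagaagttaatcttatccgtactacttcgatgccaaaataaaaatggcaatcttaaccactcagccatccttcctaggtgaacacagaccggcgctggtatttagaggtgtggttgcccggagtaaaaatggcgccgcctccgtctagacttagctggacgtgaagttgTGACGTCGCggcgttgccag

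A RefSeq window of 250 bases before the gene start was found for 41 of the 52 members. TGACNNNGC, read on both strands, occurred in 5 of these, or 12.2%, and in 10.2% of all 32851 windows of that length. The other members with a match were Psmb6, Psmc6, Psmd9 and Psmd12, of which none passed as higher or lower with the RPKM as deposited, while Psmb6 (0.15), Psmd9 (0.21) and Psmd12 (0.20) passed as higher under the scaling by median of ratios. They are shown to compare the letters around the match, each from chr11:70525338-70525366, chr14:45329587-45329615, chr5:123228149-123228177 and chr11:107479278-107479299 in the order given, all on the plus strand, with the match in capitals on whichever strand it lay.
Psmb6: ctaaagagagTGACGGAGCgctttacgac
Psmc6: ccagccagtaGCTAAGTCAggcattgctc
Psmd9: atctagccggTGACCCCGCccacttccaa
Psmd12: tctGCTGTGTCAcatttgcccc

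The other standard cutting subunits did not follow Psmb5. Psmb6 (chromosome 11, 70525367 to 70527858), which carries the caspase-like site and cuts after acidic residues, was at 67.5, 68.6 and 74.2 RPKM in treated and 70.3, 73.1 and 68.8 RPKM in untreated libraries. Psmb7 (chromosome 2, 38588036 to 38644087), with the trypsin-like site that cuts after basic residues, was at 59.9, 67.2 and 66.3 RPKM in treated and 54.1, 63.9 and 58.7 RPKM in untreated libraries. The groups overlapped for both genes. Psmb6 had a log2 change of -0.01 (SE 0.0492) and Psmb7 of 0.13 (SE 0.0687), and neither passed. Psmb7 passed as higher without treated replicate 1 or untreated replicate 2 (0.18 and 0.19). Both passed as higher under the scaling by median of ratios (0.15 and 0.30), so the sign of Psmb6 depended on the scaling. Psmb7 shares 405 exon bases on the opposite strand with the gene Nek6.

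Of the 3 immunosubunits, 2 were lower with apoptotic thymocytes, beside 46% lower of all tested genes. Psmb8 (ENSMUSG00000024338, chromosome 17, 34197721 to 34201454, plus strand), also called LMP7 and the counterpart of Psmb5, was at 18.6, 20.4 and 21.9 RPKM in treated and 28.5, 30.1 and 28.9 RPKM in untreated macrophages. The groups did not overlap. The means were 20.3 ± 1.64 and 29.2 ± 0.828 RPKM, a log2 change of -0.51 (SE 0.0598), and untreated macrophages had 1.44 times the treated level. Psmb8 shares 498 exon bases with the antisense gene Gm20496, and the use of strand in counting is not given in the sources used here.

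Psmb9 (ENSMUSG00000096727, chromosome 17, 34181988 to 34187764, minus strand), also called LMP2 and the counterpart of Psmb6, was at 3.30, 3.68 and 3.52 RPKM in treated and 6.65, 6.90 and 6.37 RPKM in untreated macrophages. Its highest treated library stood below its lowest untreated library. The log2 change was -0.76 (SE 0.0553), and the untreated mean was 1.90 times the treated mean. These values rest on 303 to 313 reads in treated and 470 to 604 reads in untreated libraries. Psmb9 shares 212 exon bases on the opposite strand with Tap1, a subunit of the transporter that carries peptides into the endoplasmic reticulum. Tap1 itself was at 4.11, 4.42 and 4.70 RPKM in treated and 7.71, 8.16 and 8.92 RPKM in untreated libraries, a log2 change of -0.78.

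Psmb10 (ENSMUSG00000031897, chromosome 8, 105935728 to 105938392, minus strand), also called MECL-1 and the counterpart of Psmb7, lies apart from the other immunosubunit genes, which sit in the MHC region. It was at 27.1, 30.1 and 28.2 RPKM in treated and 29.7, 31.7 and 31.4 RPKM in untreated macrophages. The groups overlapped by a single library on each side, and the log2 change of -0.11 (SE 0.0510) did not pass. The value turned to 0.05 under the scaling by median of ratios. Without treated replicate 2 it passed as lower, at -0.15.

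**Figure D2:**
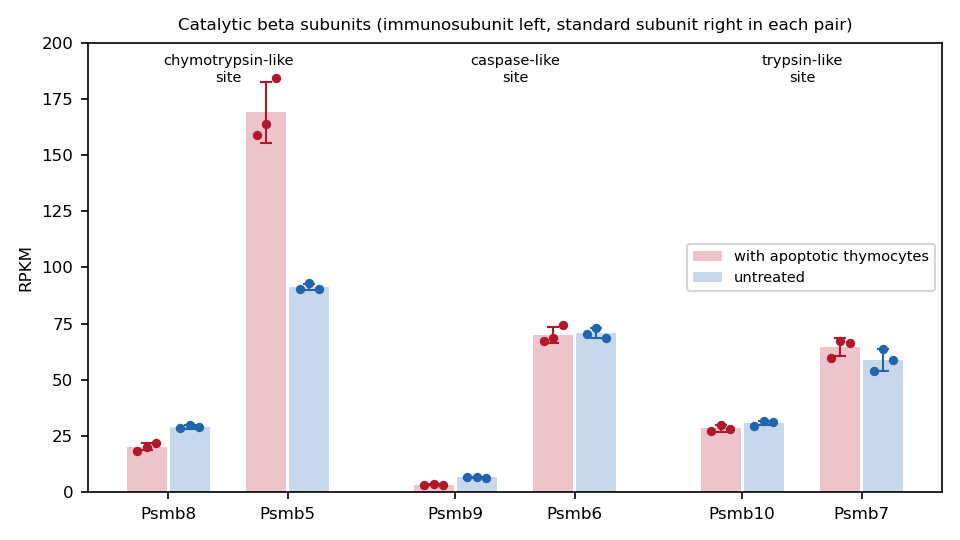
RPKM of the 6 catalytic subunits per library (points), with the mean (bar) and SD (error bar) of 3 libraries, treated in red on the left and untreated in blue on the right of each gene. Within each pair the immunosubunit stands left of its standard counterpart. The Psmb5 bars are 169 and 91.3 RPKM, the Psmb8 bars 20.3 and 29.2 RPKM, and the groups overlap for Psmb6, Psmb7 and Psmb10.

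Ratios between 2 genes of 1 library do not move with the scaling of that library. The ratio of Psmb8 to Psmb5 was 0.117, 0.124 and 0.119 in treated and 0.315, 0.324 and 0.3196 in untreated libraries. It was thus 2.66 times as high in untreated as in treated macrophages, with no overlap. The ratio of Psmb9 to Psmb6 averaged 0.04997 ± 0.00328 in treated and 0.0939 ± 0.00110 in untreated libraries, and that of Psmb10 to Psmb7 averaged 0.442 ± 0.0150 and 0.526 ± 0.0278 (SD, n = 3 each). In all 3 pairs every treated ratio lay below every untreated ratio. Among single tested genes 69.6% did not overlap between groups, and no such share was computed over other pairs of genes. Levels of different genes depend on the gene lengths used in counting, and the Psmb9 values gave whole reads with a length of 3659 bases, so the shares below are read between groups and not as shares of particles.

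Together the immunosubunits made up 14.6%, 15.3% and 14.2% of the summed RPKM of the 6 catalytic genes in treated macrophages, and 23.2%, 23.0% and 23.4% in untreated macrophages. The difference of the means was -8.48 percentage points. Both sums contributed, since the immunosubunits summed to 52.3 ± 2.82 RPKM in treated and 66.7 ± 1.92 RPKM in untreated libraries, and the standard subunits to 303 ± 19.6 RPKM and 221 ± 7.94 RPKM. Of the summed standard difference of 82.5 RPKM, most lay in Psmb5.

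**Figure D3:**
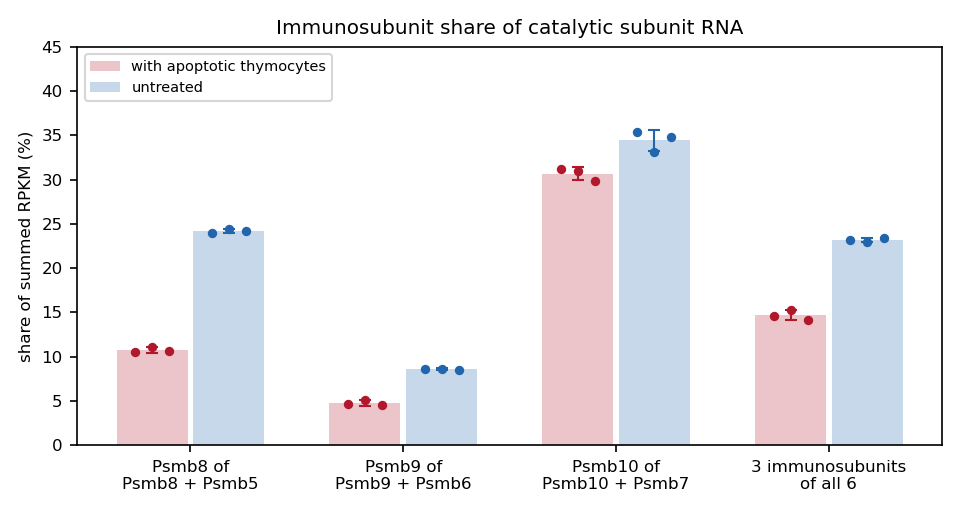
Immunosubunit RPKM as a percent of the summed RPKM of each catalytic pair and of all 6 genes, per library (points) with mean and SD of 3 libraries, treated on the left and untreated on the right. Over all 6 genes treated libraries lie at 14.2% to 15.3% and untreated libraries at 23.0% to 23.4%, and the Psmb8 pair shows the widest gap, with means of 10.7% and 24.2%.

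Of the 7 alpha genes, 5 were higher and 2 did not pass, with a median log2 change of 0.24. The share of higher genes among all tested genes was 18.8%. Psma5 (chromosome 3, 108256926 to 108279974) was at 65.5, 70.6 and 71.2 RPKM in treated and 44.8, 47.4 and 44.1 RPKM in untreated macrophages. That was the widest gap of the alpha genes, at a ratio of 1.52 and a log2 change of 0.59 (SE 0.0494). At the other end, Psma1 (chromosome 7, 114264606 to 114276118) was at 43.3, 45.7 and 45.3 RPKM in treated and 43.6, 48.0 and 48.4 RPKM in untreated libraries, which overlapped. Its log2 change of -0.06 did not pass and turned to 0.11 under the scaling by median of ratios. Psma6 (0.38), Psma7 (0.32), Psma3 (0.24) and Psma2 (0.14) passed as higher, and Psma4 (0.08) did not. The call of Psma2 was lost without treated replicate 2 or untreated replicate 1 or 3.

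All 4 structural beta genes passed as higher, with log2 changes of 0.13 to 0.31, beside 18.8% higher of all tested genes. Psmb3 (chromosome 11, 97703399 to 97713500) had the largest and was at 27.0, 31.1 and 31.5 RPKM in treated and 22.9, 24.6 and 23.9 RPKM in untreated libraries. Psmb1 (chromosome 17, 15475721 to 15498276) had the smallest and was at 95.8, 98.1 and 104 RPKM in treated and 89.5, 93.8 and 88.8 RPKM in untreated libraries. Neither gene overlapped between groups. The call of Psmb1 was lost without treated replicate 2 or 3 and without untreated replicate 1 or 3, with no filter and with no intensity trend, as was that of Psmb4, and Psmb2 lost its call without treated replicate 2 or untreated replicate 1. Within the standard 20S core, the most abundant gene had 5.65 to 6.86 times the RPKM of the least abundant in treated libraries, against 3.88 to 3.96 times in untreated libraries. These ranges did not overlap, and Psmb5 was the top gene in each treated library.

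Among the 6 ATPases, which form the unfolding ring of the cap, Psmc1 stood apart. Psmc1 (ENSMUSG00000021178, chromosome 12, 100110186 to 100123364, plus strand), also called Rpt2, whose tail helps to open the 20S gate, was at 137, 144 and 142 RPKM in treated and 65.6, 66.6 and 64.4 RPKM in untreated macrophages. The groups lay far apart, with little spread within each. The means were 141 ± 3.94 and 65.5 ± 1.09 RPKM, a ratio of 2.15 and a log2 change of 1.09 (SE 0.0412), the highest of the 47 tested members. Psmc1 over the median of the other ATPases was 3.44 ± 0.373 in treated and 1.63 ± 0.0837 in untreated libraries. The bases upstream of the gene are shown for this reason, from RefSeq on GRCm38.p6, chr12:100109952-100110153, plus strand, up to the first exon of GENCODE M21. Capitals mark the CCAAT box, and no antioxidant response element core was matched in this window.
Psmc1: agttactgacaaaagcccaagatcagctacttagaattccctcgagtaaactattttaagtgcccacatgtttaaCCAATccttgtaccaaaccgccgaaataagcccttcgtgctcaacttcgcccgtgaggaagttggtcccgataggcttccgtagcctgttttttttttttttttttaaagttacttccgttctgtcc

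CCAAT, read on both strands, occurred in 15 of the 41 member windows, or 36.6%, and in 33.8% of all windows of 250 bases. Of the 13 tested members with a match, 9 were higher and 2 lower, beside 19 higher and 7 lower of the 39 tested members with a window. Over all tested genes 18.8% were higher and 46% lower, and the calls of other genes with a match were not counted. The 2 lower members were Psmb9 and Psmd10.

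The other ATPases changed little. Psmc2 (0.27), Psmc5 (0.23) and Psmc3 (0.16) passed as higher, and Psmc4 (0.10) did not. Psmc3 lost its call with no filter and without treated replicate 2 or 3 or untreated replicate 1 or 2. Psmc6 (chromosome 14, 45329824 to 45349071) was at 48.2, 45.1 and 35.9 RPKM in treated and 40.3, 41.8 and 41.7 RPKM in untreated libraries. Treated replicate 3 lay below every untreated library and the other treated libraries lay above them. The log2 change of 0.05 (SE 0.0927) did not pass, and it passed as higher without treated replicate 3 (0.17) and turned to -0.03 without treated replicate 1.

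The non-ATPase subunits of base and lid hold the ubiquitin receptors and the deubiquitinase. Of these 11 genes 8 were higher, beside 18.8% higher of all tested genes. Psmd2 (Rpn1, chromosome 16, 20651652 to 20663414), the scaffold that binds shuttle factors, was at 90.6, 93.5 and 99.2 RPKM in treated and 70.3, 72.6 and 69.8 RPKM in untreated macrophages, with no overlap. Its log2 change was 0.41 (SE 0.0462). Psmd11 (0.40), Psmd7 (0.34), the base scaffold Psmd1 (0.32), the deubiquitinase Psmd14 (0.28), Psmd13 (0.20), Psmd3 (0.16) and the ubiquitin receptor Psmd4 (0.16) also passed as higher. Psmd12 (0.04) and Psmd6 (0.01) did not pass. Psmd13 lost its call without untreated replicate 3, Psmd4 without treated replicate 2 or untreated replicate 1 or 3, and Psmd3 with no filter or without any 1 library other than treated replicate 1.

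Psmd8 (Rpn12, chromosome 7, 29174188 to 29180673), a lid subunit, was the exception. It was at 119, 129 and 138 RPKM in treated and 157, 167 and 159 RPKM in untreated libraries, with no overlap. The means were 129 ± 9.49 and 161 ± 5.70 RPKM, a log2 change of -0.32 (SE 0.0590), and the call was lost under both alternative scalings (-0.15 each). Psmd8 was the most abundant 19S transcript in all untreated libraries, and Psmc1 was in all treated libraries. The most abundant 19S gene had 11.2 to 11.5 times the RPKM of the least abundant, Psmd11, in treated and 17.0 to 18.4 times in untreated libraries.

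**Figure D4:**
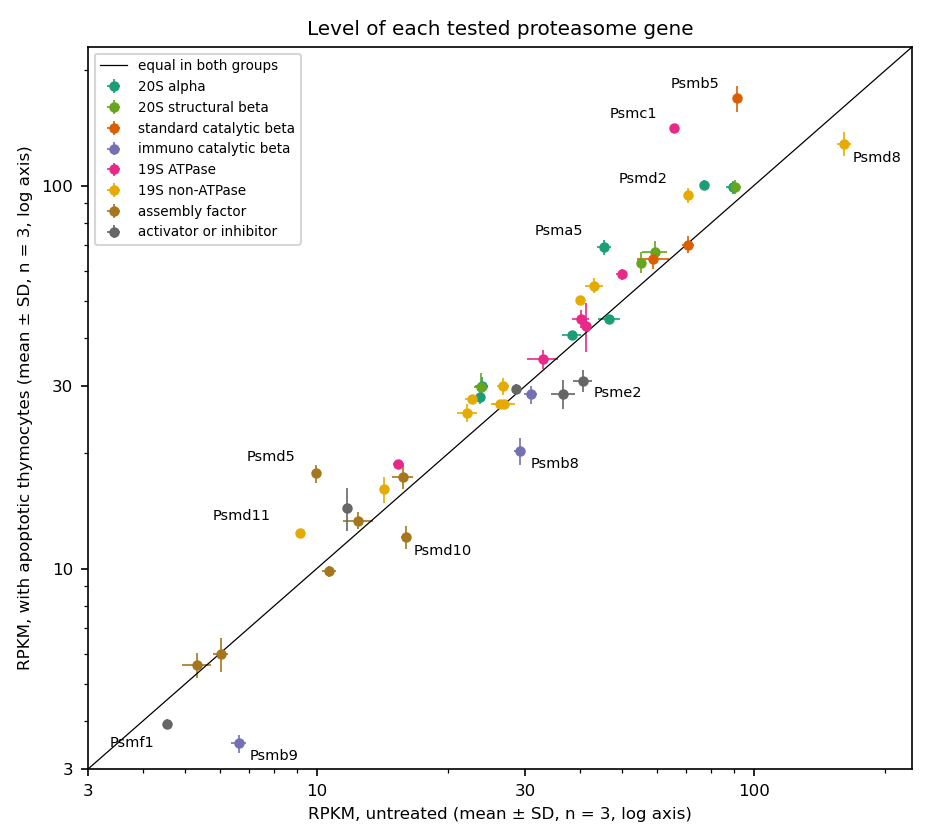
Mean RPKM with SD (n = 3 each) of the tested members other than Psme2b-ps. Treated macrophages are on the vertical and untreated macrophages on the horizontal axis, both logarithmic. The line marks equal levels. Psmc1 (141 and 65.5 RPKM in treated and untreated) and Psmb5 (169 and 91.3 RPKM) lie farthest above it among the abundant genes, and Psmb9 (3.499 and 6.64 RPKM) lies farthest below it.

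Assembly factors went in both directions. Psmd5 (chromosome 2, 34852088 to 34870939), a chaperone of the ATPase ring that helps to assemble the module of Psmc1 and Psmc2 and is also known to inhibit the assembled 26S particle, was at 16.6, 18.2 and 18.4 RPKM in treated and 9.85, 9.999 and 10.1 RPKM in untreated macrophages. The groups lay far apart, at a ratio of 1.78 and a log2 change of 0.77 (SE 0.0502). Psmd10 (gankyrin, chromosome X, 140948429 to 140956728), another chaperone of that ring, was at 11.2, 12.6 and 12.6 RPKM in treated and 15.8, 15.7 and 16.4 RPKM in untreated libraries. It was lower without overlap, by a log2 change of -0.37 (SE 0.0557). The other ATPase ring chaperone, Psmd9 (0.06), and the 20S assembly chaperones Psmg1 (-0.01), Psmg2 (-0.11), Psmg3 (0.10) and Psmg4 (0.13) did not pass. Psmg4 passed as higher without treated replicate 1 and under both alternative scalings, and Psmg2 passed as lower without treated replicate 3 and turned to 0.05 under the scaling by median of ratios.

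Of the activators, Psme1 and Psme2 were lower, Psme4 was higher and Psme3 did not pass. Psme1 and Psme2, which form the interferon-inducible PA28 cap, are neighbours on chromosome 14 (55578123 to 55581529, plus strand, and 55587441 to 55591113, minus strand). Psme2 was at 29.1, 30.8 and 33.1 RPKM in treated and 39.6, 43.0 and 39.4 RPKM in untreated macrophages, a log2 change of -0.38 (SE 0.0582). Psme1 averaged 28.6 ± 2.50 RPKM in treated and 36.6 ± 2.29 RPKM in untreated libraries, a log2 change of -0.35. Both genes were lower with no overlap, and the ratio of Psme1 to Psme2 was 0.922 ± 0.0371 in treated and 0.8997 ± 0.0161 in untreated libraries, a difference smaller than the SD among treated libraries. Under the scaling by median of ratios Psme2 remained lower (-0.22) and Psme1 did not pass (-0.18).

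The nuclear activator Psme3 (PA28 gamma) was at 29.5 ± 0.863 RPKM in treated and 28.5 ± 0.107 RPKM in untreated libraries and did not pass. Psme4 (PA200, chromosome 11, 30771726 to 30880361), an activator linked to histone degradation, was at 16.0, 14.7 and 12.4 RPKM in treated and 11.8, 11.5 and 11.9 RPKM in untreated macrophages. The treated libraries spread widely but all lay above the untreated ones. The log2 change of 0.27 (SE 0.0805) passed, and did not without treated replicate 2, without untreated replicate 2 or with no filter on low values. Psmf1 (PI31), named for its inhibition of the 20S core in the test tube, was lower, with means of 3.93 ± 0.115 RPKM in treated and 4.55 ± 0.0793 RPKM in untreated libraries. That call was lost under both alternative scalings and without untreated replicate 3.

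The members below the filter were 5. Psmb11, the cutting subunit of thymic epithelium, was listed at 0 in all 6 libraries, as were Psmb6-ps and Psmb7-ps2. The testis subunit Psma8 averaged 0.779 ± 0.131 RPKM in treated and 1.10 ± 0.213 RPKM in untreated libraries, and Psmc3ip, a meiotic recombination gene that carries a proteasome-like symbol only, averaged 0.621 ± 0.198 and 1.09 ± 0.216 RPKM. Psme2b-ps, a copy of Psme2 on chromosome 11, passed as lower at 7.65 ± 2.54 RPKM in treated and 13.1 ± 1.88 RPKM in untreated libraries, a call lost with no filter. It was grouped as a pseudogene by its symbol, apart from the activators, while GENCODE M21 lists it as protein coding. Reads of near-identical copies may be split between them, so the levels of Psme2 and of this copy are uncertain. Exons of 16 members shared bases with another annotated gene.

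Short motifs of interferon response elements and of STAT factors were searched in the same windows. The core of interferon response elements, GAAA, any NN and again GAAA, occurred on either strand in the windows of Psmd4, Psmd9 and Psmb3, that is 7.32% of the 41, and in 2.98% of all windows. Of these genes Psmd4 and Psmb3 were higher and Psmd9 did not pass, beside 18.8% higher of all tested genes. TTCNNNGAA, the core bound by STAT dimers, occurred in Psmb8 and Psmg1, or 4.88%, and in 7.02% of all windows. The Psmb8 match is shown because this gene was lower. It lies at chr17:34198088-34198116, plus strand, upstream of the RefSeq start but inside the gene interval of the deposited table.
Psmb8: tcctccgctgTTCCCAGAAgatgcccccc

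Other genes of the pathway were followed in 4 lists. Among 19 factors that control proteasome genes, 5 were higher, 9 lower and 5 did not pass, with a median log2 change of -0.08, beside 18.8% higher and 46% lower over all tested genes. Under the scaling by median of ratios 8 were higher and 8 lower. Myc, which can drive proteasome genes in growing cells, averaged 2.59 ± 0.114 RPKM in treated and 9.62 ± 0.516 RPKM in untreated macrophages. Nfe2l2, which encodes NRF2, averaged 44.8 ± 0.530 RPKM in treated and 82.3 ± 2.04 RPKM in untreated macrophages (log2 change -0.86), and the small MAF gene Maff averaged 0.615 ± 0.0917 and 3.37 ± 0.216 RPKM (-1.44). The interferon factor Irf1 averaged 6.83 ± 0.140 RPKM in treated and 12.7 ± 0.316 RPKM in untreated macrophages (-0.80). These are the genes of the list with the smallest p, and all 4 were lower. The 5 higher ones were Mafg, Stat3, Bach1, Nlrc5 and Ddi2.

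Nfe2l1, which encodes the factor NRF1 that restores proteasome levels after inhibition, was also lower, at 30.8 ± 1.81 RPKM in treated and 38.6 ± 0.720 RPKM in untreated libraries. The class I transactivator Nlrc5 was higher at 5.17 ± 0.291 and 4.46 ± 0.0899 RPKM. Nfe2l1 and Nlrc5 were picked from the list after their values were seen.

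Of 14 genes of the cap and of associated proteins outside the symbol pattern, 3 were higher, 6 lower and 5 did not pass, beside the same 18.8% and 46% of all tested genes, and under the scaling by median of ratios 6 were higher and 4 lower. The 20S maturation factor Pomp, the ubiquitin receptor Adrm1 and Zfand5 were the higher ones, with log2 changes of 0.17 each. Akirin2, which brings proteasomes into the nucleus, averaged 14.7 ± 0.195 RPKM in treated and 21.1 ± 0.679 RPKM in untreated libraries (-0.49), and the deubiquitinase Usp14 averaged 10.8 ± 0.353 and 14.7 ± 0.183 RPKM (-0.41). Zfand2a (-0.37) and the downstream peptidase Tpp2 (-0.61) were lower too. The cap deubiquitinase Uchl5 was lower (-0.24), a call lost under that scaling (-0.08).

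Of 21 tested genes of ubiquitin supply and shuttling, 4 were higher, 9 lower and 8 did not pass, beside 18.8% higher and 46% lower of all tested genes. Under the scaling by median of ratios 8 were higher and 2 lower. The autophagy receptor Sqstm1 (p62) averaged 265 ± 9.92 RPKM in treated and 167 ± 1.18 RPKM in untreated macrophages (log2 change 0.66). Vcp (p97), the ATPase that pulls substrates from membranes and complexes, averaged 128 ± 4.12 and 84.1 ± 1.29 RPKM (0.60), and its cofactor Nploc4 was higher as well (0.35). Bag6 was lower (-0.35). The ubiquitin gene Ubb was higher (0.33) while Rps27a was lower (-0.22), a call lost under that scaling (-0.06).

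Of 10 genes of MHC class I peptide loading, 3 were higher and 6 lower, beside 18.8% and 46% of all tested genes, and H2-D1 (0.15) did not pass and was higher under the scaling by median of ratios (0.32), where Erap1, 1 of the 6, no longer passed (-0.08). The higher ones, Calr (1.38), Pdia3 (1.11) and Canx (0.34), are general chaperones of the endoplasmic reticulum, and among the lower ones were Tapbp (-0.80), Tap1 (-0.78), B2m (-0.65) and H2-K1 (-0.47).

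**Figure D5:**
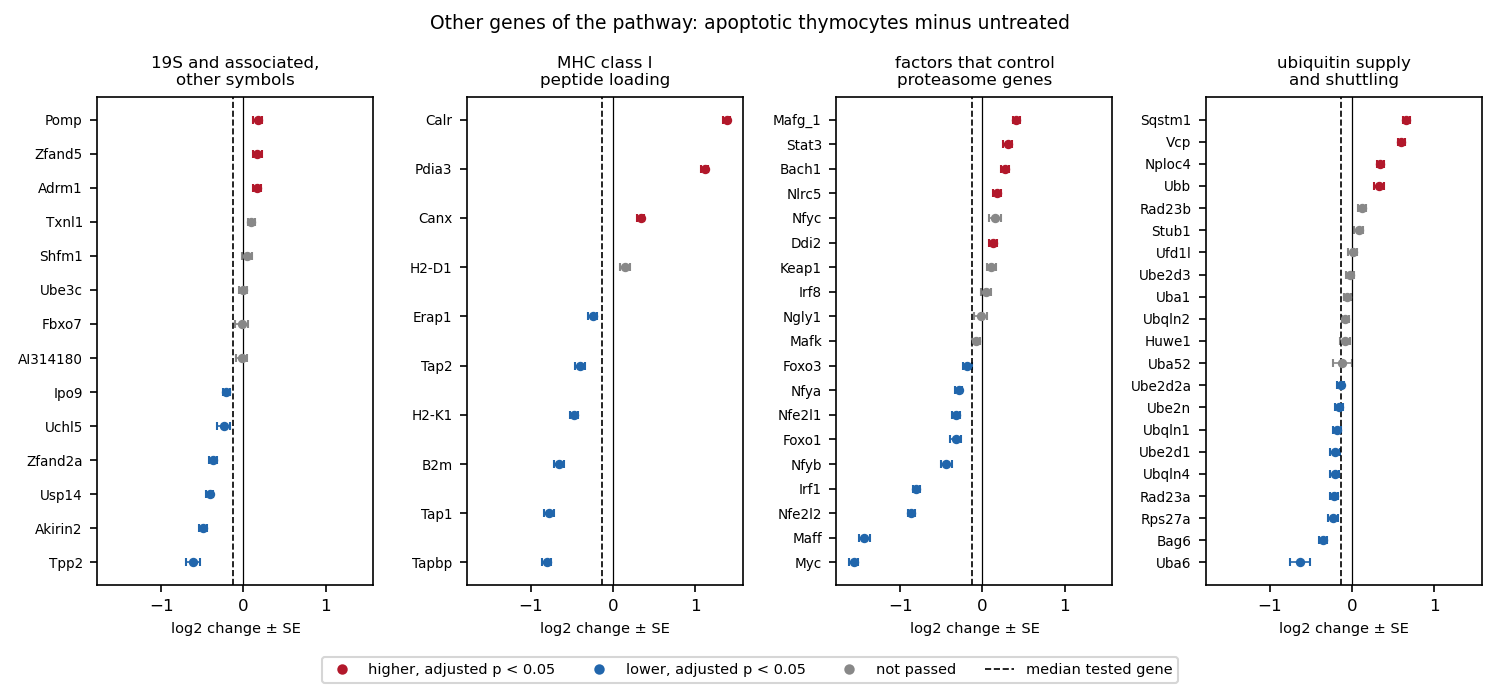
Log2 change (treated minus untreated, log2(RPKM + 1) scale) with 1 standard error of the tested genes of the 4 other lists. Red points passed as higher, blue as lower and grey did not pass, and the dashed line is the median tested gene at -0.13. Irf1, Nfe2l2, Maff and Myc lie at the low end of the control factors, and Calr and Pdia3 at the high end of the class I list.

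Depth was 19315132 to 25933208 mapped reads per library, recovered from the steps of the RPKM values. Pearson r across genes was 0.994 or more within groups and 0.940 or less between them. All 8 macrophage markers were tested, beside 18.8% higher and 46% lower of all tested genes. Lyz2 and Mertk were higher, and the 6 lower were Adgre1, Csf1r, Cd68, Cd14, Fcgr1 and Itgam. The RPKM of the 8 summed to 20126 to 22468 in treated and 15621 to 16354 in untreated libraries. Most of that sum was Lyz2, with means of 19419 RPKM in treated and 13388 RPKM in untreated libraries. Of 14 thymocyte and T cell markers, 5 were at 0 in all libraries, Cd3e, Cd8b1, Rag2, Ptcra and Themis. The 13 without Cd4, which macrophages can carry, summed to 0.140 to 0.289 RPKM in treated and 0.200 to 0.285 RPKM in untreated libraries. Members of this sum went both ways at very low levels. Cd3d averaged 0.0422 RPKM and Cd3g 0.0252 RPKM in treated libraries, and both were at 0 in untreated ones. Lck averaged 0.0387 RPKM in treated and 0.139 RPKM in untreated libraries, and Dntt 0.00665 and 0.0282 RPKM. The 5 neutrophil markers summed to 25.9 to 28.4 RPKM in treated and 5.61 to 6.08 RPKM in untreated libraries, nearly all of it S100a8, with Ly6g at 0 in all. Erythroid markers summed to 0.923 to 1.48 RPKM in treated and 0 to 0.0515 RPKM in untreated libraries. Markers of thymic epithelium, of which Psmb11 was at 0 in all, summed to 0.428 to 0.655 RPKM in treated and 0 to 0.0508 RPKM in untreated libraries, led by Krt8 in treated libraries. Dendritic cell markers, nearly all Itgax, summed to 4.77 to 4.95 RPKM in treated and 11.6 to 12.2 RPKM in untreated libraries. The part of these differences in the proteasome values was not tested.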

How the data were processed

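The authors deposited RPKM per gene for 6 libraries, per the file headers, on GRCm38 (mm10), per the submitters' processing notes. How reads were aligned and counted, with which gene model and whether by strand, is not given in the sources used here. Each column matched 1 sample title, with 0 columns left over. All 18737 genes above 0 gave whole reads within 0.001 reads, 9371 with GENCODE M21 exon lengths and the rest with a length searched up to 30000 bp. Depth was set to give whole reads and the first fitting length was taken. For genes with few reads the searched length is therefore no check. Of the 52 members 28 had the GENCODE length, among them Psmb11, Psmb6-ps and Psmb7-ps2, whose values of 0 fit any length. Intervals from the reads of single libraries are not given, since they would cover counting error only.

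Genes reaching 1 RPKM in 3 or more libraries entered limma 3.58.1 (R 4.3.3) as log2(RPKM + 1), in a model of group alone with the prior variance following intensity. This scale understates changes of low genes. P-values were adjusted by Benjamini-Hochberg over all 10173 tested genes. The fit was tested on simulated data. Tables were made in Python 3.11.15, pandas 2.3.3 and numpy 2.4.6. Alternatives were a pseudocount of 0.1, no filter, median-of-ratios and upper-quartile scaling, no trend, a replicate block and leaving out each library.

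The members, gene lists and marker lists were chosen with earlier results of these data known. Named members are the 6 catalytic subunits and, in each other class, those with the highest and lowest log2 change. Of the other lists up to 4 genes with the smallest p are named. Further genes named with values were chosen after these were seen. Of the list symbols, 2 were not matched. A few genes of these lists are not reported here. Promoter windows are RefSeq's, and coordinates are those of the deposited table.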

Additional observations from a re-analysis of the deposited data

How the results depend on the processing

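Of the 18 members named by rule, 10 kept their direction and call under all 12 alternatives, a count not made over all genes. The scaling moved the counts most. With median-of-ratios scaling 3234 of all genes were higher and 2832 lower, and with upper-quartile scaling 3280 and 2814. Under each of these scalings 5 members were lower and 34 were higher. Among the members named by rule, signs turned under the scalings for Psmb6 (0.15 and 0.16), Psmb10 (0.0517 and 0.0550) and Psma1 (0.11 with each). With median-of-ratios scaling those of Psmg1 (0.13) and Psmg2 (0.05) turned as well. Without 1 library Psmb6 ranged from -0.0545 to 0.0129, turning without untreated replicate 2 or treated replicate 1 or 2, and Psmc6 from -0.0344, without treated replicate 1, to 0.172. The causes were not tested.

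Leaving out 1 library at a time gave 1549 to 1949 higher and 3657 to 4708 lower genes over all, and 16 to 26 higher and 7 to 9 lower members, with the lowest number of higher members without treated replicate 2. With no filter 19 members were higher, without Psmb1, Psmb4, Psmc3, Psmd3 and Psme4. Of the 24 higher members 15, and of the 8 lower members 4, kept their call under every alternative. How many of all called genes did so was not counted, so these numbers have no background. The difference in immunosubunit share ranged from -8.78 to -8.22 percentage points without 1 library and was -7.03 as a mean of the 3 pairwise shares.

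The labels give both groups replicate numbers 1 to 3, but libraries of the same number did not deviate together (r of 0.197, -0.0310 and -0.162 for the 3 numbers, and -0.319 to 0.326 for other pairs). With the replicate block 26 members were higher and 8 lower, and over all genes 1904 were higher and 4627 lower. Psmb7 (adjusted p = 0.0337, limma) and Psmg4 passed as higher with the block, and no other member changed its call.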
